A study of Mus musculus with 18 samples.

Results

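Genes of the mouse heat shock protein and co-chaperone system were followed through the liver, brain and testis of stressed and control mice, chosen by gene symbol from a fixed list. The list was chosen with earlier results of these data known, so its counts beside shares of all genes are a description. It held 41 symbols, and 40 of them were matched by GENCODE M21 gene name among the 34932 genes of the count table. Hspa14 had no match by that naming, which does not show that its gene is missing from the table. All 40 passed the filter on low counts in each tissue. By role they were 9 members of the Hsp70 and Hsp110 families, 2 Hsp90 genes, 4 small heat shock proteins, 6 Hsp40 co-chaperones, 8 other co-chaperones, 7 subunits of the cytosolic chaperonin CCT, 2 heat shock factors and the 2 subunits of the mitochondrial chaperonin. The list is therefore mostly but not wholly cytosolic, since Hspd1 and Hspe1 work in mitochondria and the heat shock factors are transcription factors. The stressed mice underwent chronic restraint stress, a procedure in which animals are repeatedly confined, and the controls did not. Each of the 6 groups (liver, brain or testis, control or stress) held 3 biological replicates, 18 RNA-seq libraries in all. The labels give no strain, sex, age or length of restraint, and the tissue labelled brain is named as hippocampus in the extraction text.

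Heat shock proteins are molecular chaperones that bind unfolded or newly made proteins. Hsp70 proteins hold and release their clients in an ATP-driven cycle started by Hsp40 (J-domain) proteins and reset by nucleotide exchange factors of the Hsp110 and Bag families. Hsp90 receives clients such as steroid receptors and kinases from Hsp70 through the adaptor Stip1 and is tuned by further co-chaperones, while small heat shock proteins hold unfolded proteins without ATP. Many of these genes are switched on together by heat shock factor 1, which binds inverted repeats of the bases nGAAn in their promoters. Testes carry dedicated Hsp70 forms in meiotic and haploid germ cells.

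Library totals ranged from 27.85 to 36.5 megacounts. The tissues carried their own markers: the summed depth-scaled counts (CPM) of 8 hepatocyte genes were 69795 to 93917 in liver, those of 8 neuron genes 6973 to 7761 in brain, and those of 9 spermatid genes 17355 to 20123 in testis. Stress testis replicate 2 stood apart, with a summed level of 7 spermatocyte markers of 781 CPM against 1323 to 1601 CPM in the other 5 testis libraries, and 12 macrophage markers at 80.8 CPM against 37.3 to 43.9 CPM. One non-coding gene, Gm23935, took 2.73% to 16.7% of the summed TPM, the authors' transcript level scaled for length and depth, in the testis libraries and so lowered the TPM of other genes to different degrees. The sample code of stress brain replicate 3 has the letter of a control, while its title, treatment and table column say stress. It was used as a stress library.

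Promoters of the members were searched for heat shock elements because the list was built around the heat shock response. RefSeq promoter windows (build GRCm38.p6, 250 bases before to 50 after a transcription start) were found for 34 of the 41 listed symbols, Hspa14 included, and Hsf1, Hspa8, Hsp90aa1, Hsp90ab1, Cryab, Cct4 and St13 had none in the table. An element of 2 units, GAANNTTC or TTCNNGAA on either strand (each reads the same on both strands), was in 16 of these 34 (47.1%) and in 4587 of 27025 genes in the table (17%). An element of 3 units, GAANNTTC followed by NNGAA or TTCNNGAA followed by NNTTC, each the reverse complement of the other and each containing the 2-unit forms, was in 5 of the 34 (14.7%) and in 179 of 27025 genes (0.662%). Those 5 were Hsph1, Hspd1, Hspe1, Dnajb6 and Chordc1. The letters describe these windows only and show no binding.

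The following stretches, 5′ to 3′ on the strand of the gene with each matched element in capitals, show a 2-unit element in the inducible Hsp70 pair and in Hspb1, and 3-unit elements in 4 other members. The first 5 are the 150 bases before the start: Hspa1a at chr17:34972157-34972306 (minus strand), Hspa1b at chr17:34959239-34959388 (minus strand), Hspb1 at chr5:135887769-135887918 (plus strand), Hspe1 at chr1:55087998-55088147 (plus strand) and Dnajb6 at chr5:29735748-29735897 (plus strand). Hsph1 at chr5:149636287-149636315 (minus strand) covers bases 22 to 50 after the more upstream of its 2 starts, and Chordc1 at chr9:18292261-18292290 (plus strand) runs from 6 bases before its start to 24 after it.
Hspa1a: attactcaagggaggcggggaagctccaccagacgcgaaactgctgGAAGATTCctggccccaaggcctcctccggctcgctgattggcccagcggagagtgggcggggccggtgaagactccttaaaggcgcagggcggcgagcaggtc
Hspa1b: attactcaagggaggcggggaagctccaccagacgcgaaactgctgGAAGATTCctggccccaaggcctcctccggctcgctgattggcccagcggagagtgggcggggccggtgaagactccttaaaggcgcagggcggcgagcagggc
Hspb1: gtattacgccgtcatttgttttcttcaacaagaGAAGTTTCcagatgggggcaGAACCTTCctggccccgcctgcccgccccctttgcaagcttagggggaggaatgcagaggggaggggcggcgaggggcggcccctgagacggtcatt
Hspe1: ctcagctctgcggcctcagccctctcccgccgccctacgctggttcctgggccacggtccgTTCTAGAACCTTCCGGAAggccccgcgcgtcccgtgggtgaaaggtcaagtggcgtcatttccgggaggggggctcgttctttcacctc
Dnajb6: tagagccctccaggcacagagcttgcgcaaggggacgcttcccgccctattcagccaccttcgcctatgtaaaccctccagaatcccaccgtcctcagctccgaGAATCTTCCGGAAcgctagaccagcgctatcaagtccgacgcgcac
Hsph1: gtaaaatgctgcagaTTCTGGAAAGTTCt
Chordc1: cgGAACGTTCGGGAAAATTCCTGAAgcagt

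Hspa1a and Hspa1b, tandem copies whose starts lie 12918 bases apart, differed at 1 of these 150 bases and at 3 of the 250 before the start. Each held a single 2-unit element that began 104 bases before the start. Hspa1l, the testis form, starts 547 bases from Hspa1a, and its window held no match. Hspb1 held 2 separate 2-unit elements, which began 117 and 97 bases before its start. Hspd1 and Hspe1, whose starts lie 216 bases apart, shared 1 run of overlapping elements, read from opposite strands. The windows of Hspa4l, Stip1, Ahsa1, Cacybp, Hspa2 and Dnajb1 held no match to either form.

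The levels of the members in control mice were described first. TPM is per transcript length, so it allows comparison between genes within a tissue, and means are given ± SD over 3 libraries. Between tissues the direction of many differences depended on the scaling: the median log2 difference over all genes between liver and brain was -0.33 with TMM factors, -1.37 with library size alone and -1.47 in TPM. With TMM, 24 of 40 members were higher in liver than in brain (34.4% of all genes tested) and 7 were lower (45.6%) at an edgeR adjusted p under 0.05. Only 20 of 40 had the same sign on all 3 scales, and 6 members were higher in liver and 7 higher in brain at that threshold on every scale. Testis against liver gave 18 of 40 higher (54% of all genes) and 17 lower (34.5%) with TMM, and 18 and 8 on all 3 scales. Testis against brain gave 24 higher (47%) and 13 lower (41.2%) with TMM, and 22 and 13 on all 3 scales. By mean TPM in controls, 19 members were highest in testis, 14 in brain and 7 in liver.

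The leading Hsp70 gene was Hspa8 in control liver and brain and Hspa2 in control testis. Hspa8, the constitutive cytosolic Hsp70, was the most abundant member in control liver, at 698, 686 and 1100 TPM, and the second in control brain, at 1139, 1121 and 1069 TPM. In control testis it stood at 126, 111 and 113 TPM, below every liver and brain library. Hspa2, the Hsp70 of meiotic germ cells, reached 1153, 1220 and 1247 TPM in control testis, against 49.4 to 70.9 TPM in brain and 2.59 to 4.19 TPM in liver. Hspa1l, a germ-cell Hsp70 that is not heat-inducible, had 99.6, 102 and 97.6 TPM in control testis, 3.05 to 4.36 TPM in brain and 0.24 to 0.378 TPM in liver. These 2 genes were the only members with a control mean in testis at least 10 times that of both other tissues (19 and 27.3 times the next tissue), and the list was drawn up to include testis-rich forms, so their levels are given as a description. The ratio of Hspa8 to Hspa2 TPM, which does not depend on the scaling between libraries, was 166 to 405 in control liver, 15.8 to 21.7 in control brain and 0.0908 to 0.109 in control testis.

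**Figure D1:**
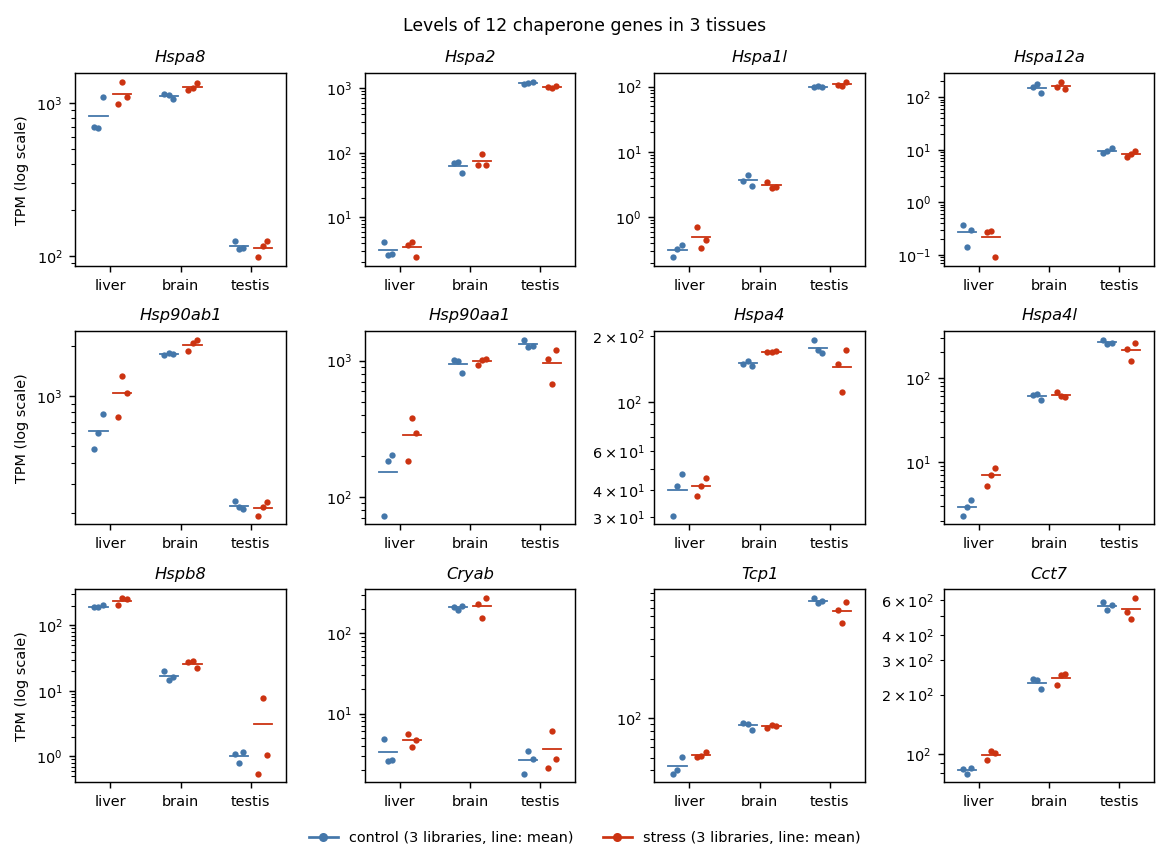
TPM (log axis, each panel with its own range) of 12 members in liver, brain and testis; points are single libraries, lines are means of 3, blue for control and red for stress. Hspa2 and Hspa1l stand highest in testis, Hspa8 lowest in testis, Hspa12a and Cryab highest in brain, and Hspb8 highest in liver.

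The inducible pair Hspa1a and Hspa1b, the classic heat-induced Hsp70 genes, had a mean of 107 TPM for Hspa1b in control liver (SD 96, n = 3), 21.5 TPM in brain and 1.79 TPM in testis. Hspa1a had 8.78, 13.6 and 2.37 TPM in the same order. The copies are nearly identical, how shared reads were counted is not stated in the labels, and the split between them is uncertain: Hspa1b was 12 to 17.8 times Hspa1a in control liver and 0.694 to 0.794 times in control testis. Hspa12a, a distant Hsp70 relative, was the member with the steepest contrast between brain (152 ± 31.1 TPM) and liver (0.269 ± 0.12 TPM, SD, n = 3), and was higher in brain on all 3 scales (edgeR adjusted p = 1.64e-07 with TMM). The Hsp110 genes, nucleotide exchange factors for Hsp70, also diverged. Hspa4l had 263 ± 15.1 TPM in testis, 60.1 ± 5.22 TPM in brain and 2.93 ± 0.636 TPM in liver. Its paralog Hspa4 had 178, 150 and 39.9 TPM in the same order, so Hspa4 was 13.3 to 14.3 times Hspa4l in control liver and 0.658 to 0.687 times in control testis. Hsph1, the inducible Hsp110, was highest in brain (149 ± 16.1 TPM).

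The Hsp90 pair switched order between tissues. Hsp90ab1, the constitutive cytosolic Hsp90, led in brain, with 1752, 1811 and 1772 TPM in the control libraries. It was second in control liver (484, 599 and 783 TPM) and lowest in testis (235, 216 and 211 TPM). Hsp90aa1, the inducible form, was the leading member of control testis, at 1411, 1263 and 1272 TPM. It reached 1016, 985 and 817 TPM in control brain and 73.3, 183 and 203 TPM in control liver. Within libraries, Hsp90ab1 was 3.27 to 6.6 times Hsp90aa1 in control liver, 1.72 to 2.17 times in brain and 0.166 to 0.171 times in testis, with no overlap between tissues.

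Small heat shock proteins were divided among the tissues. Hspb8, the partner of Bag3 in selective autophagy, had 194 ± 7.64 TPM in control liver, 17.2 ± 2.93 TPM in brain and 1.01 ± 0.201 TPM in testis (SD, n = 3). Cryab, alpha-B crystallin, had 209 ± 11.4 TPM in brain and 3.34 and 2.64 TPM in liver and testis. Hspb6 was highest in testis (41.7 ± 3.71 TPM) and Hspb1 in liver (69.3 ± 48.6 TPM). The chaperonin subunits of mitochondria, Hspd1 and Hspe1, were lower in testis than in liver, with log2 differences of -4.03 ± 0.18 and -5.43 ± 0.15 (SE, TMM) and edgeR adjusted p of 2.41e-08 and 2.5e-09, and the direction held on all 3 scales.

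The CCT chaperonin, which folds actin and tubulin, was highest in testis for 6 of its 7 listed subunits, with Cct8 the exception in TPM. Tcp1, its alpha subunit, was the third most abundant member of control testis, at 826, 763 and 784 TPM, against 81.6 to 92.8 TPM in brain and 37.8 to 51.1 TPM in liver. The 7 subunits summed to 2529 to 2683 TPM in control testis, 918 to 1020 TPM in brain and 449 to 506 TPM in liver. Their direction between liver and brain was scale-dependent: each of the 7 had a positive liver minus brain difference with TMM and a negative one in library size and in TPM. Among Hsp40 co-chaperones, which deliver clients to Hsp70, Dnajb1 was the third most abundant member of control liver, although its 3 libraries gave 94.8, 491 and 635 TPM. Dnajb6 reached 189 ± 8.2 TPM in testis against 16.1 ± 2.38 TPM in liver. Of the Hsp90 co-chaperones, the immunophilin Fkbp4 was highest in testis (492 ± 2.66 TPM), and the adaptor Stip1 (236 ± 2.74 TPM) and the ATPase activator Ahsa1 (235 ± 15.8 TPM) in brain. In TMM-scaled counts the order of liver and brain turned for Ahsa1, with a liver minus brain difference of 0.82 (edgeR adjusted p = 0.000229). For Stip1 no difference from brain was called. Its liver minus brain value was 0.15 ± 0.14 (SE, edgeR adjusted p = 0.334) and its testis minus brain value 0.19 ± 0.09 (edgeR adjusted p = 0.0798). Hsf1, the main heat shock factor, was 1.38 to 1.52 times Hsf2 in control liver, 2.22 to 2.73 times in brain and 0.683 to 0.914 times in testis. Hsf2, a factor active in germ cells, had 57.4 ± 5.38 TPM in testis.

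In the liver the comparison asked how restraint stress changed the members. In stress liver 5 rose and 0 fell: Hspa4l, Stip1, Hspb1, Ahsa1 and Cacybp passed an edgeR adjusted p of 0.05, 5 of 40 members where 0.982% of the 14253 genes tested were called higher and 0.645% lower. At p under 0.05 before adjustment, 16 members were higher and 0 lower (8.78% and 8.37% of all genes). DESeq2 called 8 members higher and 0 lower, beside 3.27% and 2.66% of all genes. All 3 stress libraries lay above all 3 controls for 16 members and below them for 0, where 12% and 11.1% of all genes did so. Of the 40, 37 had a positive log2 fold change, beside 48.7% of all genes tested. The median of the 40 was 0.29 beside -0.01 over all genes tested. CPM values given for stress comparisons carry TMM factors of that tissue, and log2 fold changes are stress minus control. In bulk tissue, fewer cells of a type and less RNA per cell cannot be told apart.

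Hspb1 (ENSMUSG00000004951), the small heat shock protein also called Hsp25 in mouse, had the largest fold change of the members in liver. Its control libraries held 20.7, 24.6 and 64.3 CPM and its stress libraries 110, 319 and 166 CPM. The groups did not overlap, and the log2 fold change was 2.44 ± 0.49 (SE; edgeR adjusted p = 0.0476). Hspa4l (ENSMUSG00000025757), the Hsp110 gene that was scarce in control liver, had 14.6, 18.1 and 21 CPM in control and 32.6, 41.9 and 51.6 CPM in stress. Again every stress library was above every control, at a log2 fold change of 1.23 ± 0.19 (SE) and an adjusted p of 0.0223 in edgeR. Its paralog Hspa4 had 91.3 to 131 CPM in control and 109 to 128 CPM in stress, with overlapping groups. The within-library ratio of Hspa4 to Hspa4l TPM was accordingly 13.3 to 14.3 in control and 5.29 to 7.15 in stress liver.

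Stip1 (ENSMUSG00000024966), the Hsp70 to Hsp90 adaptor, had 82.5, 70.4 and 97.4 CPM in control liver and 131, 160 and 161 CPM in stress liver. It rose by 0.85 ± 0.15 on the log2 scale (edgeR adjusted p = 0.0347). Ahsa1 (ENSMUSG00000021037), which activates the Hsp90 ATPase, had 77.9, 76.6 and 90.6 CPM in control and 117, 126 and 126 CPM in stress. Its log2 fold change was 0.59 ± 0.12 (edgeR adjusted p = 0.0476), with no overlap. Cacybp (ENSMUSG00000014226), an adaptor of the ubiquitin ligase Siah1 with a domain shared with Hsp90 co-chaperones, had 31.9, 31.2 and 39 CPM in control and 49, 52.9 and 55.9 CPM in stress. The groups did not overlap and the log2 fold change was 0.63 ± 0.13 (edgeR adjusted p = 0.0479).

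Chordc1, Fkbp4 and Hsp90ab1 did not pass in edgeR, while DESeq2 called all 3 higher (adjusted p of 0.0033, 0.00672 and 0.0144) along with the 5 above. All 8 genes grouped as other co-chaperones, the 3 called ones included, had positive log2 fold changes, from 0.06 to 0.85. For 6 of them every stress library lay above every control. Among all genes, 48.7% were positive and 12% lay above in this way. Chordc1, an Hsp90 co-chaperone, stood at 0.82 ± 0.19 on the log2 scale (adjusted p = 0.0681 in edgeR) and Fkbp4 at 0.57 ± 0.14 (edgeR adjusted p = 0.08). Hsp90ab1 had 785, 942 and 1171 CPM in control and 1182, 2038 and 1592 CPM in stress liver, without overlap (log2 fold change 0.73 ± 0.22, edgeR adjusted p = 0.13). The 2 mitochondrial subunits and 7 CCT subunits had smaller values, with medians of 0.34 and 0.12. Neither heat shock factor passed, with log2 fold changes of 0.23 for Hsf1 and 0.25 for Hsf2.

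**Figure D2:**
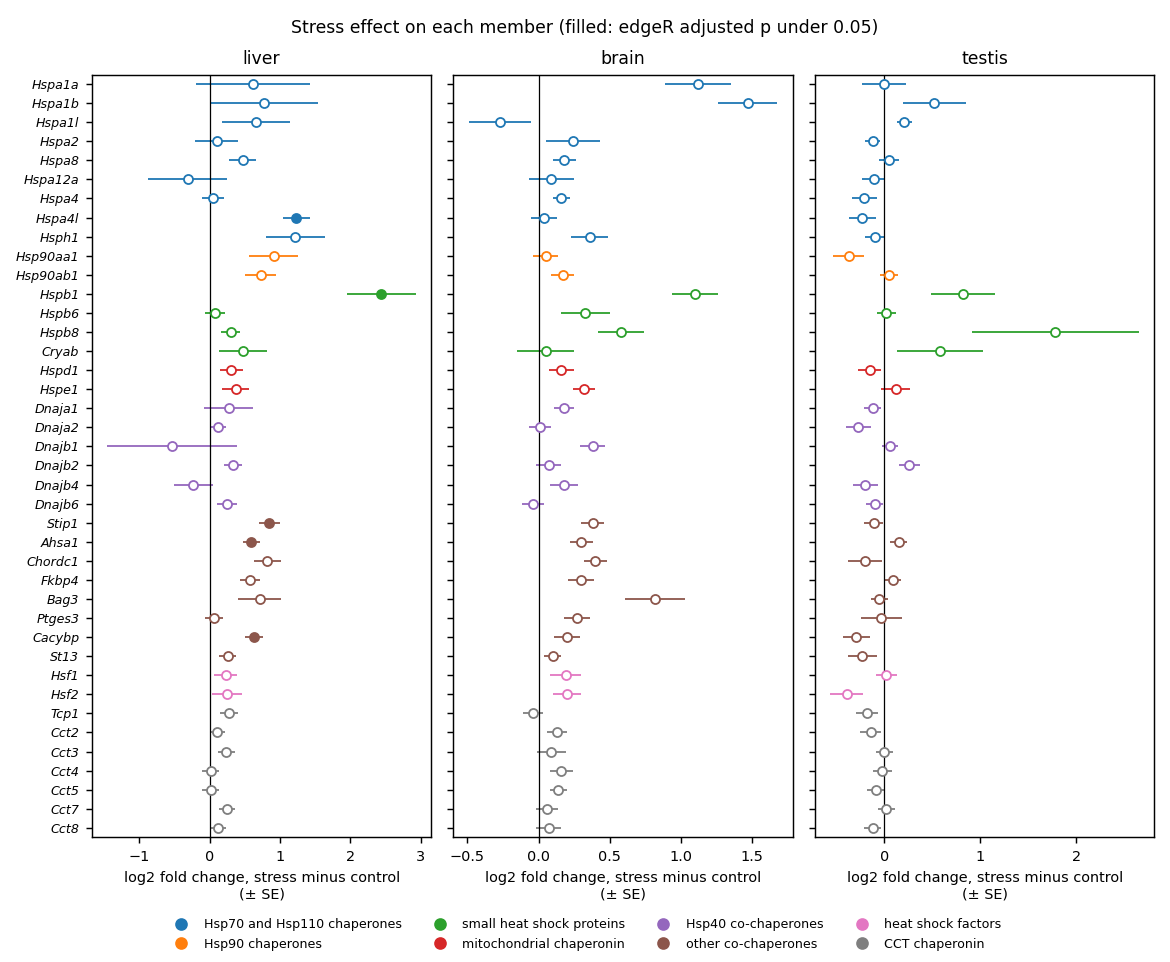
Log2 fold change, stress minus control, of each of the 40 members in liver, brain and testis (points, with SE from edgeR as bars; horizontal axes differ between panels). Filled points, all 5 in liver, passed an edgeR adjusted p of 0.05; most liver and brain points lie to the right of 0, and the testis points lie on both sides.

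Some members varied widely among control livers, and those named here were chosen after their spread was seen. The highest control library was 14.4 times the lowest for Hspa1a, 12.8 times for Hspa1b, 6.16 times for Dnajb1 and 3.84 times for Hsph1, beside medians of 1.37 over the members and 1.35 over all genes. In control brain the widest member was Hspa1b at 1.53 times, and in control testis Cryab at 1.56 times. Hspa1a and Hspa1b together had 23.3, 162 and 314 CPM in control liver and 127, 535 and 186 CPM in stress liver, and the groups overlapped. Dnajb1, the Hsp40 that is co-induced with Hsp70, had 116, 582 and 716 CPM in control and 58.1, 829 and 91.1 CPM in stress, a spread within each group that exceeded the difference between them (log2 fold change -0.53 ± 0.92, edgeR adjusted p = 0.819). Stress liver replicates 1 and 3 thus lay below every control for Dnajb1 and above every control for Hspb1 and Hspa4l. Hsph1 had 45.1, 83.8 and 175 CPM in control and 163, 290 and 255 CPM in stress (log2 fold change 1.22 ± 0.42, edgeR adjusted p = 0.175).

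**Figure D3:**
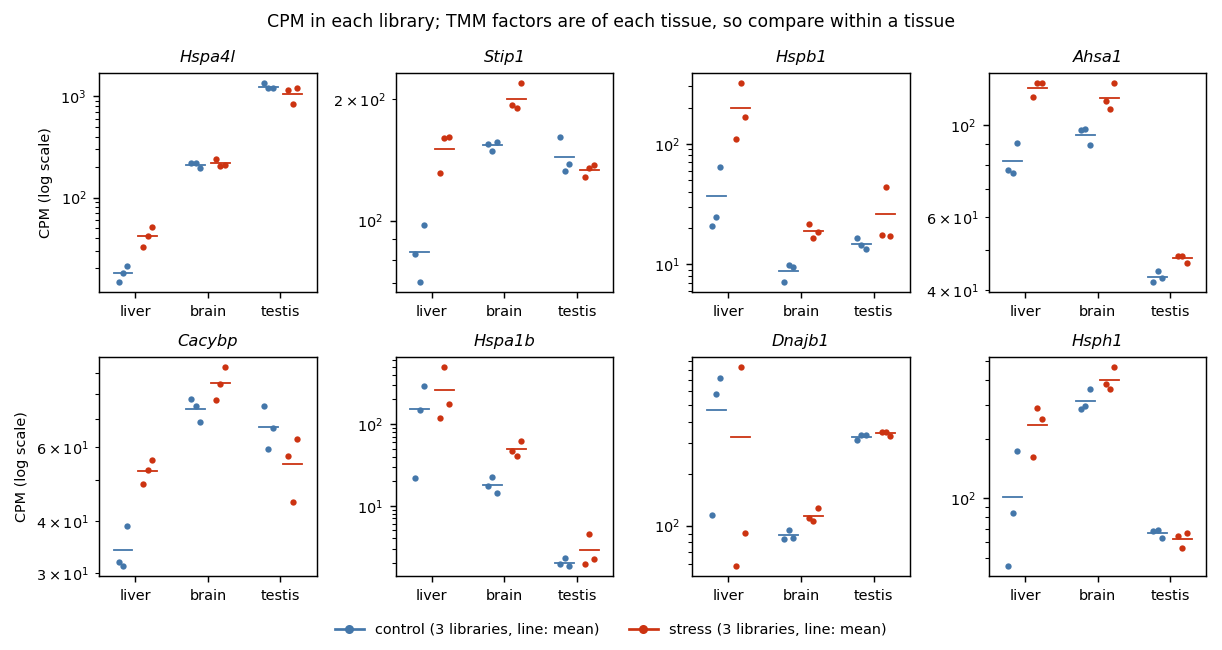
CPM (log axis, TMM factors of each tissue) of 8 members in each library; points are libraries, lines are means of 3, blue for control and red for stress. In liver the stress points of Hspa4l, Stip1, Hspb1, Ahsa1 and Cacybp lie above all controls, while Hspa1b and Dnajb1 overlap widely. In brain Hspa1b, Hspb1, Stip1, Ahsa1, Dnajb1 and Hsph1 separate, while Hspa4l and Cacybp overlap.

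The liver calls were sensitive to leaving out 1 library. The log2 fold changes then ranged from 1.06 to 1.39 for Hspa4l, 0.74 to 0.98 for Stip1 and 1.91 to 3.13 for Hspb1. For Ahsa1 they ranged from 0.55 to 0.68 and for Cacybp from 0.57 to 0.74. Leaving out 1 library at a time gave 0 to 6 members higher: Hspa4l passed in 4 of the 6 fits, Stip1 in 2, Hspb1 in 1, and Ahsa1 and Cacybp in 0, while the median stayed between 0.23 and 0.33. The count was 0 without control replicate 2 or without stress replicate 3. Shares of all genes in those fits are not given, so these counts are not read as results about the members. Markers of macrophages moved with the groups, at 94.8 to 113 CPM for 12 genes in control liver and 194 to 229 CPM in stress liver, none of the 12 at 0. Their part in these differences was not tested.

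In the brain 0 members were called higher or lower by edgeR, where 1 of 17668 genes was called higher (0.00566%) and 0 lower. At p under 0.05 before adjustment, 15 members were higher and 0 lower (4.16% and 3.38% of all genes). DESeq2 called 6 members higher, beside 0.526% of all genes higher and 0.249% lower: Hspa1b, Hspb1, Hspa1a, Stip1, Chordc1 and Bag3. All 3 stress libraries lay above all 3 controls for 22 of 40 members and below them for 0, beside 7.21% and 6.64% of all genes. The median log2 fold change of the members was 0.18 and that of all genes 0.00 to 2 decimals. Of the 40 members 37 were positive, beside 49.1% of all genes.

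Hspa1b and Hspa1a had the largest log2 fold changes in brain. Hspa1b had 17.3, 22.3 and 14.3 CPM in control and 46.7, 40.1 and 62.6 CPM in stress, and its log2 fold change was 1.47 ± 0.21 (adjusted p = 0.351 in edgeR and 3.03e-08 in DESeq2). Hspa1a had 9.85, 15.3 and 11 CPM in control and 25, 19.9 and 33.6 CPM in stress (1.12 ± 0.23, edgeR adjusted p = 0.387). Neither gene's groups overlapped, and the sum over both copies was 25.4 to 37.5 CPM in control and 60 to 96.2 CPM in stress. Hspb1 had 7.08, 9.8 and 9.45 CPM in control and 21.4, 16.5 and 18.4 CPM in stress, again apart, and its log2 fold change was 1.10 ± 0.16 (adjusted p = 0.357 in edgeR).

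The Hsp90 co-chaperones Chordc1 and Stip1 had smaller log2 fold changes. Chordc1 had 65.2, 58.4 and 62.6 CPM in control and 78.9, 79.2 and 87.5 CPM in stress brain (log2 fold change 0.40 ± 0.08, edgeR adjusted p = 0.387). Stip1 had 155, 149 and 157 CPM in control and 193, 190 and 219 CPM in stress (0.38 ± 0.08, edgeR adjusted p = 0.387). Neither gene's groups overlapped. Of the 8 genes grouped as other co-chaperones, which also hold partners of Hsp70, 7 separated stress from control upward, beside 7.21% of all genes. Bag3, a nucleotide exchange factor that links Hsp70 to Hspb8, had 5.57 to 7.65 CPM in control and 9.22 to 14.9 CPM in stress (0.82 ± 0.21). Dnajb1, so variable in liver, had 84.2, 94.5 and 84.5 CPM in control brain and 111, 106 and 126 CPM in stress (0.38 ± 0.09, edgeR adjusted p = 0.442). The abundant Hsp90aa1 had 980 to 1189 CPM in control and 1078 to 1209 CPM in stress, which overlapped, and Hspa4l had a log2 fold change of 0.04 ± 0.09.

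**Figure D4:**
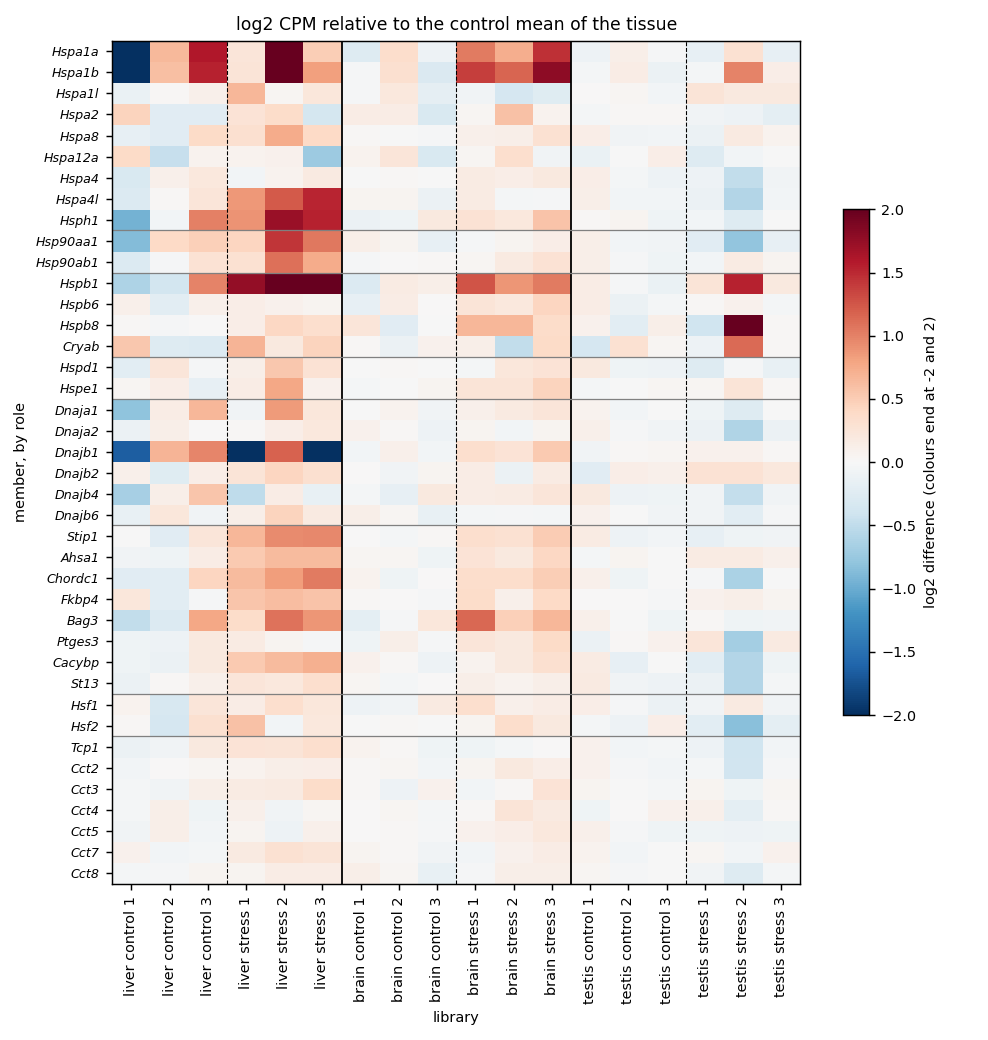
Log2 CPM of the 40 members (rows, by role) in 18 libraries (columns) relative to the control mean of the tissue; the colours end at -2 and 2, lines part the roles, the tissues and the treatments. Red prevails in the stress columns of liver and brain, the Hspa1a, Hspa1b and Dnajb1 rows vary across liver libraries, and stress testis replicate 2 has the strongest colours of the testis columns.

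Choroid plexus markers were uneven among the brain libraries. Their summed level over 10 genes was 9.14 to 16 CPM in control and 15.4, 537 and 363 CPM in stress replicates 1, 2 and 3. The 8 hepatocyte markers, which share Ttr with that list, summed to 493 and 321 CPM in stress replicates 2 and 3 and to 0.859 to 6.84 CPM in the other 4 libraries, with 4 and 3 of the 8 at 0 in those 2. The oligodendrocyte markers were at 2257 CPM in stress replicate 2 and at 3410 to 5567 CPM in the other 5. The part of these cell types in the brain differences was not tested. Over the 6 fits that left out 1 brain library, 11 to 21 members had p under 0.05 before adjustment on the higher side and 0 on the lower, and 0 were called by edgeR. Shares of all genes in those fits are not given, so these counts are not read as results about the members.

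In the testis 0 members were called by edgeR or by DESeq2, where edgeR called 0.00502% of 19915 genes higher and 0.0151% lower, and DESeq2 0.146% and 0.161%. At p under 0.05 before adjustment, 3 were higher and 2 lower (6.43% and 5.3% of all genes). All stress libraries lay above all controls for 5 members and below them for 7 (10.3% and 10.7% of all genes). The members' median log2 fold change was -0.07 beside 0.01 for all genes. Of the members 17 were positive and 23 negative, where 52.1% of all genes were positive.

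Hspa1l had the smallest p of the members in testis, with 100, 102 and 95.4 CPM in control and 118, 113 and 114 CPM in stress. The groups did not overlap, and the difference was 0.21 ± 0.08 on the log2 scale (adjusted p = 0.422 in edgeR). Dnajb2, a J-domain protein known mainly from neurons, had 184, 236 and 231 CPM in control and 265, 263 and 249 CPM in stress (0.26 ± 0.11, edgeR adjusted p = 0.422). Hspa2, the abundant germ-cell form, had 1184 to 1243 CPM in control and 1064 to 1164 CPM in stress, and every stress library was lower, by -0.12 ± 0.08 on the log2 scale (adjusted p = 0.537 in edgeR).

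The other 3 of the 5 genes of smallest p had smaller values without stress testis replicate 2, the library with fewer spermatocyte and more macrophage transcripts. Hspb1 had 16.4, 14.5 and 13.4 CPM in control and 17.6, 43.6 and 17 CPM in stress. Its log2 fold change was 0.82 ± 0.33 (edgeR adjusted p = 0.422) and 0.22 without that library. Hsp90aa1 had 2262, 1998 and 1977 CPM in control and 1774, 1196 and 1852 CPM in stress. Its log2 fold change was -0.37 ± 0.16 (adjusted p = 0.422 in edgeR) and -0.20 without that library. Hsf2 had 58.8, 56.3 and 65.7 CPM in control and 52, 33.3 and 52.7 CPM in stress (-0.39 ± 0.17, edgeR adjusted p = 0.422; -0.21 without it). Hspb8 was at 0.471 to 0.895 CPM in the other 5 testis libraries and at 6.94 CPM in that one, and its log2 fold change turned from 1.78 ± 0.87 to -0.31 ± 0.43. Without the library, 12 of 40 members were positive, the median was -0.06, with 3 higher and 2 lower at p under 0.05 before adjustment. Shares and the median of all genes in that fit are not given, so these counts are not read as results about the members. The part of the cell makeup of that library in these values was not tested.

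**Figure D5:**
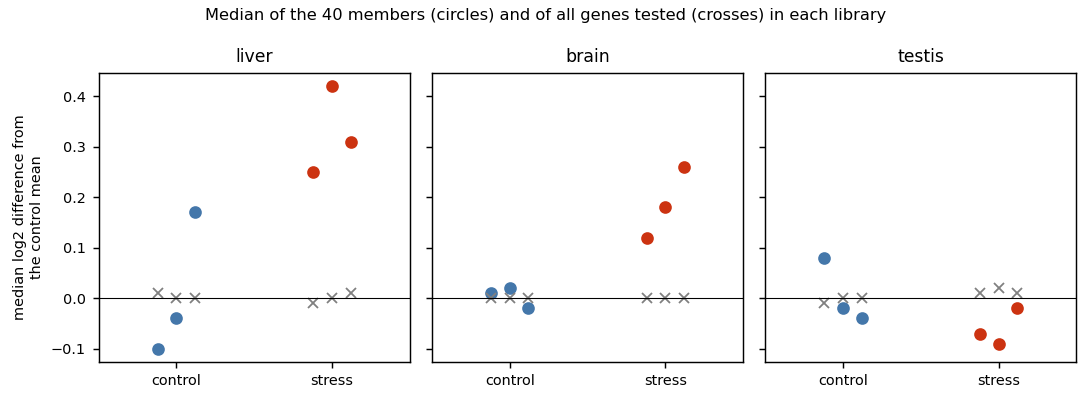
Median log2 difference from the tissue's control mean over the 40 members (circles, blue control and red stress) and over all genes tested (crosses) in each library. In liver and brain the 3 stress medians (0.25 to 0.42 and 0.12 to 0.26) lie above the 3 control medians, and in testis the groups overlap.

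Library by library, the members' median difference from the control mean was -0.10, -0.04 and 0.17 in control liver and 0.25, 0.42 and 0.31 in stress liver. In brain it was 0.01, 0.02 and -0.02 in control and 0.12, 0.18 and 0.26 in stress. In testis it was 0.08, -0.02 and -0.04 in control and -0.07, -0.09 and -0.02 in stress. The medians of all genes stayed between -0.01 and 0.02 in every library. The members together made up 0.336% to 0.551% of TPM in control liver and 0.474% to 0.785% in stress liver, which overlap. In brain the shares were 0.754% to 0.809% in control and 0.862% to 0.947% in stress, without overlap, and in testis 0.835% to 0.874% and 0.645% to 0.844%, which overlap.

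Upward separation of stress from control in both liver and brain was seen for 9 of 40 members, namely Ahsa1, Cct2, Chordc1, Fkbp4, Hsp90ab1, Hspb1, Hspb8, St13 and Stip1, where 1.44% of the 13079 genes tested in both tissues did so. Of these, Ahsa1, Fkbp4 and Hspb1 also separated upward in testis, 3 of 40 where 0.16% of the 12496 genes tested in all 3 tissues did so. Their log2 fold changes in testis were 0.15, 0.09 and 0.82, the last 0.22 without stress testis replicate 2. The same animal codes recur across tissues, so the tissues are not independent sets of mice.

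Whether the stress effect differed between tissues was tested as an interaction over 12 libraries. This fit and those between control tissues did not block on the animal, although the same animal codes recur across tissues. No member passed an edgeR adjusted p of 0.05 in any pair of tissues: 0 were called for liver minus brain (0.1% of 18962 genes called higher and 0.0949% lower), 0 for liver minus testis (0.0748% and 0.0795% of 21392) and 0 for brain minus testis (0% in either direction of 22391). At p under 0.05 before adjustment, 5 members were higher and 0 lower for liver minus brain, 11 and 0 for liver minus testis, and 11 and 1 for brain minus testis. The shares over all genes were 5.89% and 5.72%, 5.05% and 8.84%, and 4.05% and 5.38%. DESeq2 called 1, 5 and 0 members in the same order. The shares of all genes it called there are not given, so these counts are not read as results about the members.

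Hspa4l came nearest. Its stress effect in liver exceeded that in brain by 1.20 ± 0.23 on the log2 scale (edgeR adjusted p = 0.064; DESeq2 adjusted p = 0.000359) and that in testis by 1.42 ± 0.27 (edgeR adjusted p = 0.0579). In testis it had 1347, 1197 and 1194 CPM in control and 1152, 832 and 1197 CPM in stress, which overlapped. The liver effect of Stip1 exceeded that in testis by 0.92 ± 0.19 (adjusted p = 0.0725 in edgeR) and that of Cacybp by 0.87 ± 0.20 (edgeR adjusted p = 0.0988). For brain minus testis the smallest adjusted p, 0.39 in edgeR, belonged to Bag3 (0.86 ± 0.23).

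Other cytosolic chaperones and co-chaperones outside the list were counted in the same way. Of 51 tested in liver 1 rose and 0 fell in edgeR, of 52 in brain and 55 in testis 0 passed, and DESeq2 called 4, 1 and 0 higher. The shares of all genes called higher were 0.982%, 0.00566% and 0.00502% in edgeR and 3.27%, 0.526% and 0.146% in DESeq2. Before adjustment, p was under 0.05 on the higher and lower side for 7 and 0 in liver, 3 and 2 in brain, and 6 and 1 in testis, beside 8.78% and 8.37%, 4.16% and 3.38%, and 6.43% and 5.3% of all genes. The median log2 fold changes were 0.01, 0.01 and 0.06. The gene that passed was Fkbp5, the co-chaperone of glucocorticoid receptor complexes and a textbook target of that receptor, with 13.1, 12.3 and 17.8 CPM in control liver and 35, 59 and 43.1 CPM in stress liver (log2 fold change 1.67 ± 0.22, edgeR adjusted p = 0.0108). In brain it had 24.9, 29.6 and 33.3 CPM in control and 43.4, 59 and 56.9 CPM in stress, without overlap (0.86 ± 0.15, edgeR adjusted p = 0.385). Its paralog among the members, Fkbp4, had a log2 fold change of 0.57 in liver and 0.30 in brain.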

How the data were processed

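RNA-seq libraries of liver, brain and testis, 3 per group and 18 in all, were prepared from total RNA with a stranded kit, per the labels' protocols. The genome build was mm39 per the submitters' processing notes, while the aligner, counter, strand setting and annotation are named in none of the sources used here. The deposited table holds, per the file headers, raw counts, TPM and FPKM for 34932 genes in each library. The authors deposited the counts as whole numbers and the TPM and FPKM values normalized for depth and gene length. Counts were used for tests and TPM for levels between genes, while FPKM was not used further. Gene names came from GENCODE M21 and named 34362 genes. The members and lists were chosen with earlier results of these data known.

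Stress and control libraries were compared tissue by tissue, control tissues were compared in pairs, and differences of the stress effect between tissues were fitted as interactions over 12 libraries. Each used edgeR 4.0.16 in R 4.3.3 (TMM factors, filterByExpr, quasi-likelihood test), p-values adjusted over all genes tested by Benjamini-Hochberg and a threshold of 0.05. Alternatives were DESeq2 1.42.0, limma 3.58.1 (voom, and log2(TPM + 1) with a pseudocount of 1), other size factors, no filter on low counts, a fit over all 18 libraries, a replicate block and each library left out. Library size alone and TPM for the tissue pairs were chosen after seeing the data. The fits were tested on simulated data. Replicates of a group differed by more than counting error (chi-square per degree of freedom of 4.43 to 104), and p-values measure the spread between these samples.

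Values in every library are given for members past the threshold, the 5 members of smallest p per stress comparison, the 3 of highest control TPM per tissue, members with a control mean in testis at least 10 times both others, and, of other chaperone lists, those past the threshold or up to 3 of smallest p. Other genes were named after their values were seen. Correlations of same-numbered libraries' deviations from their group means were 0.348, 0.248 and 0.54 in brain, where numbers were taken to pair the samples from the data alone, 0.237, 0.054 and 0.022 in liver, and 0.108, 0.101 and -0.127 in testis. Promoter windows were RefSeq's on GRCm38.p6, another build than that of the counts, and were joined by gene symbol.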

Additional observations from a re-analysis of the deposited data

How the results depend on the processing

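Except for DESeq2 within a tissue, whose shares stand above, counts under other settings are given here without the share of all genes called. They describe the processing and are not read as results about the members. The count of members higher in stress liver, 5 in edgeR, was 8 with DESeq2, 10 without the filter on low counts, 9 in a fit over all 18 libraries and 0 with limma on log2(TPM + 1). It was 0 to 6 when 1 library was left out, and it fell to 0 without control liver replicate 2 or stress liver replicate 3, to 1 without stress liver replicate 1 or 2 and to 3 without control liver replicate 1. The replicate block gave 8 in liver, where numbers were not taken to pair the samples, and 0 in brain and testis. The labels do not pair control with stress mice. In brain, where numbers were taken to pair the samples from the data alone, the block changed no call. For stress brain DESeq2 gave 6 members higher against 0. The testis median was -0.18 in log2(TPM + 1). Between control liver and brain, library size alone gave 10 members higher and 17 lower and log2(TPM + 1) gave 6 and 29, against 24 and 7, and for testis against liver log2(TPM + 1) gave 8 lower against 17. Interactions called 0 to 1 members for liver minus brain and 0 to 2 for liver minus testis when 1 library was left out (1 without stress liver replicate 1 in each pair, 2 without control liver replicate 3), 1 and 5 with DESeq2, and 1 and 1 without the filter. In the 250 bases before the start alone, 3 members held a 3-unit element (8.82%, beside 0.514% of all genes). For single members between control liver and brain, 20 of 40 kept their sign on all 3 scales; Ahsa1 turned from 0.82 with TMM to -1.01 in log2(TPM + 1) and Cct2 from 0.83 to -0.99. With 3 libraries a group, changes of moderate size can be missed.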

Other observations

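Chaperones of the endoplasmic reticulum, outside the cytosolic list, had positive log2 fold changes for 15 of 18 genes in liver, for 16 in brain and for 8 in testis. Among all genes, 48.7%, 49.1% and 52.1% were positive in the same order. The medians of the 18 were 0.31, 0.32 and -0.03. None of the 18 passed an edgeR adjusted p of 0.05 in a tissue, where 0.982%, 0.00566% and 0.00502% of all genes were called higher. At an unadjusted p under 0.05, 6 were higher in liver and 13 in brain with 0 lower, and 0 were higher and 2 lower in testis. The shares of all genes, higher and lower, were 8.78% and 8.37% in liver, 4.16% and 3.38% in brain, and 6.43% and 5.3% in testis. DESeq2 called 2 higher in liver, 6 in brain and 0 in testis, beside 3.27%, 0.526% and 0.146% of all genes. Serpinh1, the collagen chaperone, had a log2 fold change of 0.69 ± 0.09 in brain (16.2 to 26.1 mean CPM, edgeR adjusted p = 0.28). Manf and Hyou1, genes of the unfolded protein response, had 0.46 ± 0.08 and 0.35 ± 0.07 there. Sdf2l1 had 46.8, 23.3 and 27.8 CPM in control liver and 58.6, 50.1 and 72.9 CPM in stress liver (0.89 ± 0.25, edgeR adjusted p = 0.108). In testis, Hsp90b1, the Hsp90 of that compartment, had 517, 445 and 428 CPM in control and 364, 285 and 408 CPM in stress (-0.39 ± 0.14, edgeR adjusted p = 0.422).

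Mitochondrial chaperones and proteases other than Hspd1 and Hspe1 had medians of 0.01 in liver, 0.03 in brain and 0.00 in testis. Positive values were held by 7 of 12, 8 of 12 and 6 of 11, beside 48.7%, 49.1% and 52.1% of all genes. Of these chaperones and proteases 0 passed in edgeR or DESeq2. At an unadjusted p under 0.05 the counts were 0 in liver and brain and 1 higher in testis. The shares of all genes, higher and lower, were 8.78% and 8.37% in liver, 4.16% and 3.38% in brain, and 6.43% and 5.3% in testis.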
